A study of Mus musculus with 2 samples.

Results

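The genes described here are 8 neurotrophic factors and receptors, Bdnf, Ntf3, Ntf5, Gdnf, Ngfr, Ntrk2, Ntrk3 and Sort1, read by symbol from a feature list of 32285 mouse genes in 2 single-cell libraries of injured tendon. All 8 were found in the list and all 8 had UMIs (unique molecular identifiers, the count of captured transcripts) in both libraries. Male C57BL/6J mice of 8 to 10 weeks had been given a dorsal burn over 30% of the body surface and a cut through the Achilles tendon of the left hindlimb, an injury after which bone forms in soft tissue (heterotopic ossification). The irradiated library came from mice that also received a single X-ray dose of 7 Gy at the injury site through a collimator of 2 cm. Mice of the control library had the same injury and no irradiation. Both libraries held unsorted cells, freed by enzyme digestion from the injury site 7 days after injury. Per the labels, 10 mice made up each treatment arm, with irradiation on postoperative day 1 or on day 3. The series text points to day 3, in wording that leaves the day uncertain. The sources used here do not state how many mice entered each library. With 1 library per group, library and treatment cannot be told apart, and no test across mice was possible.

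Neurotrophins are secreted growth factors that keep neurons alive and guide their axons, and they are made by the tissues that nerves supply. Ntrk2 encodes TrkB, the tyrosine kinase receptor of brain-derived neurotrophic factor (Bdnf) and of the neurotrophin encoded by Ntf5, while Ntrk3 encodes TrkC, the receptor of the product of Ntf3. Ngfr encodes p75, which binds every neurotrophin and, with sortilin (Sort1), binds their uncleaved proforms. Gdnf belongs to another family and signals through Gfra1 and the kinase Ret. After nerve injury, Schwann cells leave the myelinating state, divide, and make p75 and Gdnf.

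The irradiated library held 8302 barcodes and 111753092 UMIs, and the control library 11369 barcodes and 180080740 UMIs. After filters, 7116 irradiated cells with a median of 10139 UMIs and 8711 control cells with a median of 13251 UMIs remained. Mitochondrial UMIs above the limit removed 509 irradiated and 1693 control barcodes, and 21 barcodes were shared by kept cells of both libraries. Cells were grouped by marker genes into classes, named "-like" because the names rest on transcripts alone, without using the 8 genes. Comparisons were made in 9 classes, those of 50 or more cells in both libraries. Levels are given in CPM, the gene's UMIs scaled to the summed UMIs of all cells of the class. A gene was called higher or lower when its CPM differed by at least 1.5-fold and the exact 95% interval of the ratio left out equality, among genes with at least 20 UMIs in the class, and it was within the limits otherwise. All intervals cover counting error only, and none covers variation between mice.

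Over all kept cells, Bdnf was 6.50 CPM in irradiated and 13.2 CPM in control cells, Ntf3 8.53 CPM in irradiated and 4.14 CPM in control cells, and Ngfr 5.69 CPM in irradiated and 2.16 CPM in control cells. Those sums follow the cells captured as well as their levels: mesenchymal-like cells were 8.95% of irradiated and 26.6% of control cells. The levels are therefore given by class.

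Of 72 pairs of gene and class, 35 could be measured, and 13 were higher, 5 were lower and 17 were within the limits in the irradiated library. Over the same classes, 7.89% of all measured pairs of gene and class were higher and 8.69% were lower. Ntf3 was higher in each of the 4 classes where it could be measured, Ntrk2 in 3 of 5, and Sort1 in none of 8. Many of these ratios changed when the clusters or subclusters of a class were weighted alike, and some when 1 of them was left out. The part of class make-up in these changes was not tested. Calls are therefore given with values inside the clusters of the class where these held enough UMIs, and with the ratio when the clusters or subclusters of at least 20 cells in each library were weighted alike in both libraries. These equal-weight ratios have no interval and were called on the 1.5-fold limit alone. They include subclusters that also carried genes of another class.

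**Figure D1:**
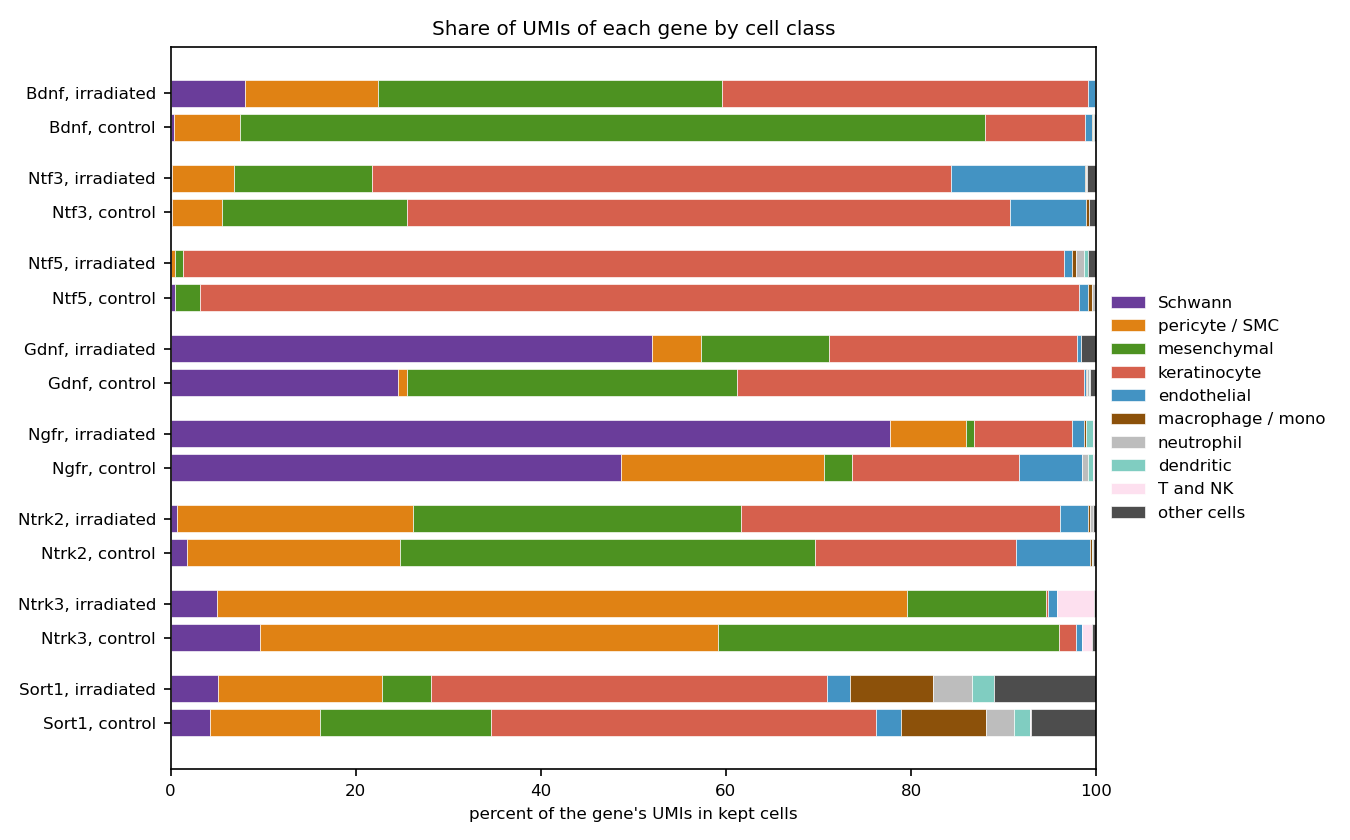
Share of each gene's UMIs (percent, horizontal axis) found in each cell class, with the irradiated bar above the control bar for each of the 8 genes. Pericyte / SMC stands for pericyte and smooth muscle-like cells, macrophage / mono for macrophage and monocyte-like cells, and other cells for classes that were not compared. Keratinocyte-like cells fill 95.3% of the irradiated and 94.9% of the control Ntf5 bar, and Schwann-like cells 77.7% of the irradiated and 48.7% of the control Ngfr bar.

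Among the ligands, Bdnf was lower in mesenchymal-like cells and higher in keratinocyte-like and Schwann-like cells. The gene lies on chromosome 2 from 109674700 to 109727007 on the plus strand (GRCm38, GENCODE M21, as are all positions of genes here). Mesenchymal-like cells, a class with fibroblast and tendon genes, held 37.1% of its UMIs in the irradiated library and 80.5% in the control library, and keratinocyte-like cells 39.6% in the irradiated and 10.8% in the control library. In mesenchymal-like cells the Bdnf level was 14.8 CPM (257 UMIs) in irradiated and 27.5 CPM (1665 UMIs) in control cells. The log2 ratio was -0.89 (interval -1.09 to -0.70). At least 1 Bdnf UMI was seen in 14.0% of irradiated and 29.4% of control mesenchymal-like cells. No Bdnf UMI was seen in 1257 irradiated or 834 control neutrophil-like cells, which at their depth allows a share of cells with a UMI of up to 0.239% in irradiated and 0.36% in control cells, and macrophage and monocyte-like cells gave 0 in the irradiated and 2 in the control library. Neutrophil-like cells were shallow, with a median of 3130 UMIs in irradiated and 2106.5 in control cells, against 24392 and 25703.5 for irradiated and control mesenchymal-like cells. In the mesenchymal-like class 6.87% of all measured genes were lower.

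Within the mesenchymal-like class, Bdnf was lower in several kinds of cell. Of 8 subclusters with at least 20 Bdnf UMIs, 5 were lower, 1 was higher and 2 were within the limits. The subcluster led by Pdzrn4 made up 28 irradiated and 642 control cells and had 32.1 CPM in irradiated and 51.1 CPM in control cells, the highest control level of the class. The subcluster led by Eln and Sfrp4, genes of elastic matrix and Wnt inhibition, had 22.7 CPM in irradiated and 40.3 CPM in control cells. The dividing subcluster with Top2a and Mki67 had 5.91 CPM in irradiated and 14.3 CPM in control cells. The one subcluster with higher Bdnf carried keratin genes beside collagen, with 57.4 CPM in 26 irradiated and 19.99 CPM in 76 control cells. Without the Pdzrn4 subcluster the class ratio was -0.43, which ends the call. With subclusters weighted alike, the one with keratin genes among them, it was -0.12.

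In keratinocyte-like cells Bdnf was 7.10 CPM (274 UMIs) in irradiated and 4.16 CPM (223 UMIs) in control cells, a log2 ratio of 0.77 (0.51 to 1.03). In these cells 7.40% of all measured genes were higher. More than any other, 1 subcluster held the gene, with 53.1% of the class's Bdnf UMIs. It was led by Cxcl14, Sema3e and Cd34, genes of hair follicle keratinocytes, and its level was 75.1 CPM in 178 irradiated and 82.6 CPM in 115 control cells. This subcluster was 14.0% of irradiated and 5.46% of control keratinocyte-like cells. Without it the class ratio was 0.00, and with subclusters weighted alike it was -0.02. Of 4 subclusters with enough Bdnf UMIs, 1 was higher, 1 was lower and 2 were within the limits. The higher one, with Defb6 and Krt79, had 22.02 CPM in irradiated and 9.38 CPM in control cells. The lower one, with Lgr5 and Lhx2, known from hair follicle stem cells, had 10.9 CPM in irradiated and 25.3 CPM in control cells.

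The largest Bdnf ratio was in Schwann-like cells, which ensheathe axons, at 32.7 CPM (56 UMIs) in irradiated and 5.69 CPM (8 UMIs) in control cells. The log2 ratio was 2.52 (1.45 to 3.80), in a class where 7.09% of all measured genes were higher. The UMIs were in few cells. A single irradiated cell held 27 of the 56, and without the top cell of each library the ratio was 1.99 (0.70 to 3.55). The subcluster with the fibroblast genes Dcn and Lum held 35 of the irradiated UMIs in 4 cells, and without this subcluster the ratio was 1.43 (0.08 to 3.03). Without the dividing subcluster, which had 8.48 CPM in irradiated and 10.2 CPM in control cells, the ratio was 4.49. Weighted alike, the dividing and the Dcn and Lum subclusters gave 3.08. In pericyte and smooth muscle-like cells Bdnf was 26.7 CPM (99 UMIs) in irradiated and 33.3 CPM (147 UMIs) in control cells and stayed within the limits. Among irradiated classes Bdnf was highest in Schwann-like and pericyte and smooth muscle-like cells, whose intervals overlapped, then mesenchymal-like, then keratinocyte-like cells. In the control library the order was pericyte and smooth muscle-like and mesenchymal-like, which overlapped, then Schwann-like and keratinocyte-like, which overlapped.

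**Figure D2:**
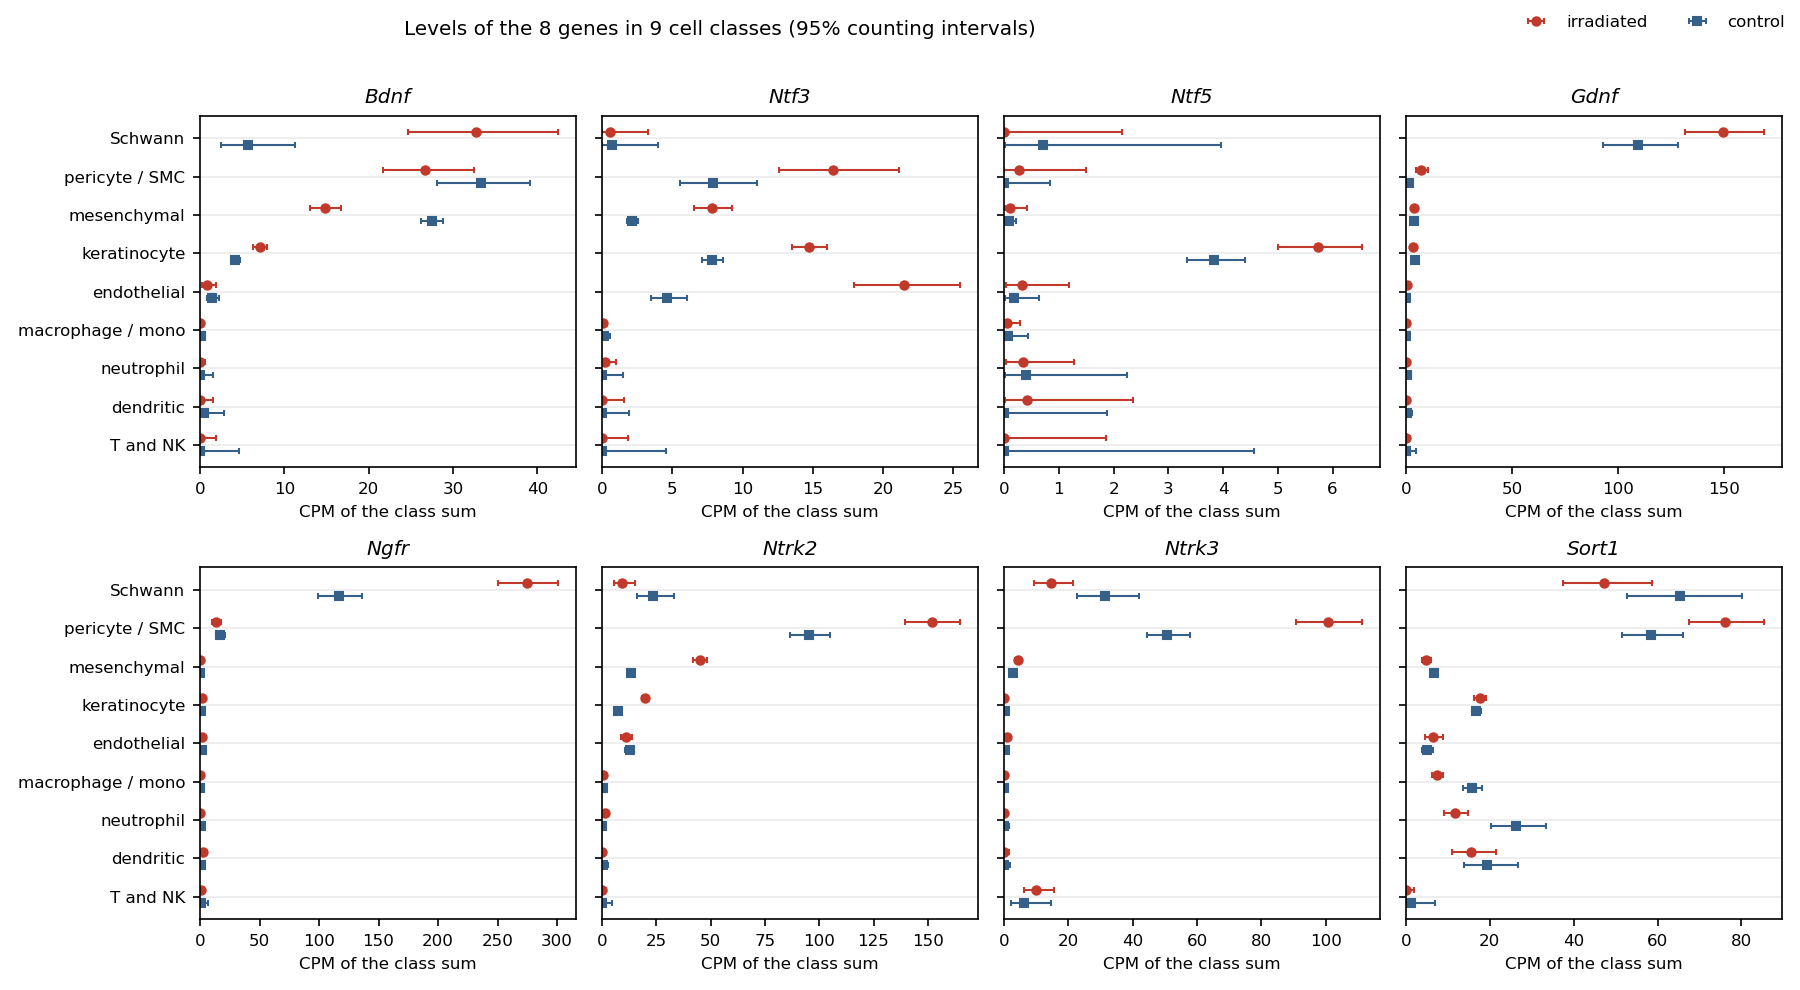
Level of each gene (CPM of the summed cells, horizontal axis, a separate linear scale per panel) in 9 cell classes. Red circles are the irradiated library, blue squares below them the control library, and bars are exact 95% counting intervals. Gdnf and Ngfr stand highest in Schwann-like cells, Ntrk2 and Ntrk3 in pericyte and smooth muscle-like cells, and Ntf5 in keratinocyte-like cells, in both libraries.

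Ntf3 (chromosome 6, 126101412 to 126166910, minus strand) was the ligand whose level was higher in the most classes. In endothelial-like cells, which line the vessels, it was 21.5 CPM (131 UMIs) in irradiated and 4.64 CPM (53 UMIs) in control cells. The log2 ratio was 2.21 (1.74 to 2.70), a 4.63-fold difference, in a class where 9.21% of all measured genes were higher and 4.24% were lower. Ntf3 was seen in 73 of 365 irradiated and 35 of 576 control endothelial-like cells, with medians of 13549 and 15450.5 UMIs per irradiated and control cell. In neutrophil-like cells it was seen in 0.0796% of irradiated cells and in 0 of 834 control cells. With every cell thinned to 2000 UMIs, the endothelial-like shares were 5.07% of 355 irradiated and 1.78% of 562 control cells, with 10 irradiated and 14 control cells too shallow to enter.

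Both endothelial-like clusters had more Ntf3 in the irradiated library. The larger cluster, led by Fabp4, Plvap and Emcn, had 10.1 CPM (46 UMIs) in irradiated and 3.23 CPM (30 UMIs) in control cells, a log2 ratio of 1.65 (0.95 to 2.36). The smaller, of 131 irradiated and 95 control cells, had 54.7 CPM (85 UMIs) in irradiated and 10.7 CPM (23 UMIs) in control cells, a log2 ratio of 2.35 (1.67 to 3.08). Weighted alike, the clusters gave 2.21. This smaller cluster also carried Rgs5, a pericyte gene, and it held 95.2% of the class's Bdnf UMIs and 90.1% of its Ntrk2 UMIs. In the Rgs5 cluster of the pericyte and smooth muscle-like class Ntf3 had 0 UMIs in irradiated and 4 UMIs in control cells.

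Keratinocyte-like cells held 62.6% of Ntf3 UMIs in the irradiated and 65.2% in the control library. Their level was 14.7 CPM (568 UMIs) in irradiated and 7.85 CPM (421 UMIs) in control cells, a log2 ratio of 0.91 (0.72 to 1.09). Inside the class the levels did not follow that ratio. The subcluster with Sox6 and Fcgbp, where haemoglobin genes also led, had 31.8 CPM in irradiated and 32.3 CPM in control cells, and the Cxcl14 and Sema3e subcluster 45.7 CPM in irradiated and 60.3 CPM in control cells. Of 9 subclusters with at least 20 Ntf3 UMIs, none was higher, 1 was lower and 8 were within the limits. The lower one, with Aldh3a1 and Pdk4, had 16 CPM in irradiated and 29.3 CPM in control cells. The Sox6 subcluster made up 21.2% of irradiated and 10.9% of control keratinocyte-like cells, while the subcluster with Krt6b and Sprr1b, genes of activated epidermis, was 5.66% of irradiated and 14.5% of control cells. With subclusters weighted alike the ratio was -0.21. The call held without any 1 subcluster, with ratios from 0.75 to 1.07.

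In mesenchymal-like cells Ntf3 was 7.83 CPM (136 UMIs) in irradiated and 2.13 CPM (129 UMIs) in control cells, a log2 ratio of 1.88 (1.52 to 2.24), where 12.8% of all measured genes were higher. The tendon subcluster, with Kera, Tnmd and Scx, had 6.53 CPM (23 UMIs) in irradiated and 1.52 CPM (13 UMIs) in control cells, and the Eln and Sfrp4 subcluster 14.3 CPM in irradiated and 4.92 CPM in control cells. Both were higher, and the other 3 subclusters with enough UMIs were within the limits. With subclusters weighted alike the ratio was 0.52, and without any 1 subcluster the call held, at 1.60 to 2.05. In pericyte and smooth muscle-like cells Ntf3 was 16.4 CPM (61 UMIs) in irradiated and 7.93 CPM (35 UMIs) in control cells, a ratio of 1.05 (0.43 to 1.70), where 7.89% of all measured genes were higher. Of these UMIs 95.8% were in the smooth muscle cluster led by Myh11, at 63.5 CPM in 51 irradiated and 62.4 CPM in 27 control cells. That cluster was 51 of 181 irradiated and 27 of 274 control cells of the class, and inside it the log2 ratio was 0.03 (-0.62 to 0.70). Among irradiated classes the Ntf3 interval of pericyte and smooth muscle-like cells overlapped those of endothelial-like and keratinocyte-like cells, while endothelial-like cells stood above keratinocyte-like cells and mesenchymal-like cells below all 3. In the control library the interval of pericyte and smooth muscle-like cells overlapped those of keratinocyte-like and endothelial-like cells, while keratinocyte-like cells stood above endothelial-like cells and mesenchymal-like cells below all 3.

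Ntf5 (chromosome 7, 45413695 to 45417179, plus strand) was measured in 1 class, and it was the most restricted of the 8. Keratinocyte-like cells held 221 of its 232 irradiated and 206 of its 217 control UMIs. Their level was 5.73 CPM in irradiated and 3.84 CPM in control cells, a log2 ratio of 0.58 (0.30 to 0.86) that fell just short of 1.5-fold. The ratio was 0.70 when each cell was weighted alike. The highest level was again in the Cxcl14 and Sema3e subcluster, at 21.8 CPM in irradiated and 17.5 CPM in control cells. The Lgr5 subcluster had 14.2 CPM (17 UMIs) in irradiated and 5.79 CPM (19 UMIs) in control cells and was the only 1 of 7 with enough UMIs that was higher.

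Gdnf and Ngfr were found together in Schwann-like cells, so the RefSeq sequences just before their starts are shown side by side. Each runs 5′ to 3′ over 250 bases that end next to the start, on GRCm38.p6, in lower case with motifs in capitals. The Gdnf window is chr15:7809798-7810047 on the plus strand, the first of its 2 listed starts, and the Ngfr window is chr11:95587699-95587948 on the minus strand. This Gdnf start lies before the GENCODE position of the gene given below. The Ngfr start lies inside the GENCODE gene, which reaches 95587735, so the end of that window, with its last marked motif, is within the gene.
Gdnf: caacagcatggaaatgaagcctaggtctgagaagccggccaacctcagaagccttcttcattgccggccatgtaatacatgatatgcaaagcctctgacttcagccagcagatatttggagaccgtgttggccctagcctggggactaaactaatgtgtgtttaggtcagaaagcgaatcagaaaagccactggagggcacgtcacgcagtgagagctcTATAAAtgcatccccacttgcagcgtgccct
Ngfr: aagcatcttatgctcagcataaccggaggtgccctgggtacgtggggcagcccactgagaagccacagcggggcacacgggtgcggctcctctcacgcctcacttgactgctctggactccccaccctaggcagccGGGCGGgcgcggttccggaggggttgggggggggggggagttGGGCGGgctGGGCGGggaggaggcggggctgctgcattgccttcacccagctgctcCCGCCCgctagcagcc
Capitals mark a TATA box (TATAAA) that begins 31 bases before the start in Gdnf, and 4 GC boxes (GGGCGG on either strand) that begin 114, 72, 63 and 16 bases before the start in Ngfr. Of 32851 mouse promoter windows of this length, 12.4% held TATAAA and 32.7% held GGGCGG, each counted on either strand. In the windows shown, no marked motifs overlapped. The AP-1 letters TGANTCA, held by 6.75% of windows, were in neither. The base composition also differs, with 50.8% G and C in the Gdnf window and 70.4% in the Ngfr window. The second Gdnf window, chr15:7813477-7813726, is not shown. It held neither TATAAA nor GGGCGG nor the AP-1 letters, and had 46.8% G and C.

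Gdnf (chromosome 15, 7810846 to 7837575, plus strand) was highest in Schwann-like cells, at 149 CPM (256 UMIs) in irradiated and 110 CPM (154 UMIs) in control cells. The log2 ratio of 0.45 (0.15 to 0.75) lay within the limits. Schwann-like cells held 52.0% of Gdnf UMIs in the irradiated library and 24.6% in the control library, although they were 1.87% of irradiated and 1.21% of control cells. The level differed by the state of the Schwann-like cells. In the myelin subcluster, with Mbp and Ncmap, there was no Gdnf UMI in 51 irradiated or 18 control cells, limits of up to 14.4 CPM in irradiated and 38.4 CPM in control cells. The dividing subcluster had 182 CPM (150 UMIs) in irradiated and 95.1 CPM (56 UMIs) in control cells, a ratio of 0.93 (0.48 to 1.40). The subcluster with Ednrb and Tenm2 had 94.96 CPM in 7 irradiated and 173 CPM in 24 control cells. With the dividing and the Dcn and Lum subclusters, the only 2 of at least 20 cells in each library, weighted alike, the class ratio was 0.90.

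Outside Schwann-like cells, Gdnf was higher in 1 class. Pericyte and smooth muscle-like cells had 7.01 CPM (26 UMIs in 20 cells) in irradiated and 1.36 CPM (6 UMIs in 6 cells) in control cells, a log2 ratio of 2.37 (1.05 to 3.94). In the Rgs5 cluster alone the values were 7.64 CPM in irradiated and 1.28 CPM in control cells. Weighted alike, the clusters gave 1.97, and with cells thinned to 2000 UMIs the ratio was 1.60 and was no longer called. Gdnf stayed within the limits in keratinocyte-like cells, at 3.42 CPM in irradiated and 4.38 CPM in control cells, and in mesenchymal-like cells, at 3.92 CPM in irradiated and 3.70 CPM in control cells. The dividing mesenchymal-like subcluster alone was higher, at 8.54 CPM (13 UMIs) in irradiated and 3.95 CPM (39 UMIs) in control cells. Within keratinocyte-like cells 62.9% of the Gdnf UMIs were in the subcluster with Il24 and Hmga2, genes of the migrating wound edge. Below Schwann-like cells, the irradiated Gdnf interval of mesenchymal-like cells overlapped those of pericyte and smooth muscle-like and of keratinocyte-like cells, which did not overlap each other. In the control library pericyte and smooth muscle-like cells stood below keratinocyte-like and mesenchymal-like cells.

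Ngfr (chromosome 11, 95568818 to 95587735, minus strand), the p75 receptor, was higher in the cells that held most of it. Schwann-like cells had 275 CPM (471 UMIs) in irradiated and 117 CPM (164 UMIs) in control cells, a log2 ratio of 1.24 (0.98 to 1.5) and a 2.36-fold difference. The share of Schwann-like cells with the gene was close in both libraries, at 48.9% of 133 irradiated and 51.4% of 105 control cells. Thinned to 2000 UMIs, the shares were 22.8% of 123 irradiated and 12.5% of 104 control cells. In macrophage and monocyte-like cells 1 irradiated and 0 control cells had an Ngfr UMI, and in neutrophil-like cells 0 irradiated and 2 control cells.

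All 4 Schwann-like subclusters with enough Ngfr UMIs had ratios above 0, the lowest 0.33. Of these, 2 were higher and 2 were within the limits. The dividing subcluster had 307 CPM (253 UMIs) in 33 irradiated and 165 CPM (97 UMIs) in 34 control cells, a ratio of 0.90 (0.55 to 1.25). The subcluster with Runx2, Gzmb and Tmem158 had 657 CPM in 15 irradiated cells and 237 CPM in only 2 control cells. Like Gdnf, Ngfr had no UMI in the myelin subcluster of either library. That subcluster was 38.3% of irradiated and 17.1% of control Schwann-like cells, and the Runx2 subcluster, where Ngfr was highest, 11.3% of irradiated and 1.90% of control cells. Without the Runx2 subcluster the class ratio was 0.88 (0.60 to 1.17), without the myelin subcluster 1.37 (1.11 to 1.63), and with the dividing and the Dcn and Lum subclusters weighted alike 0.65.

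**Figure D3:**
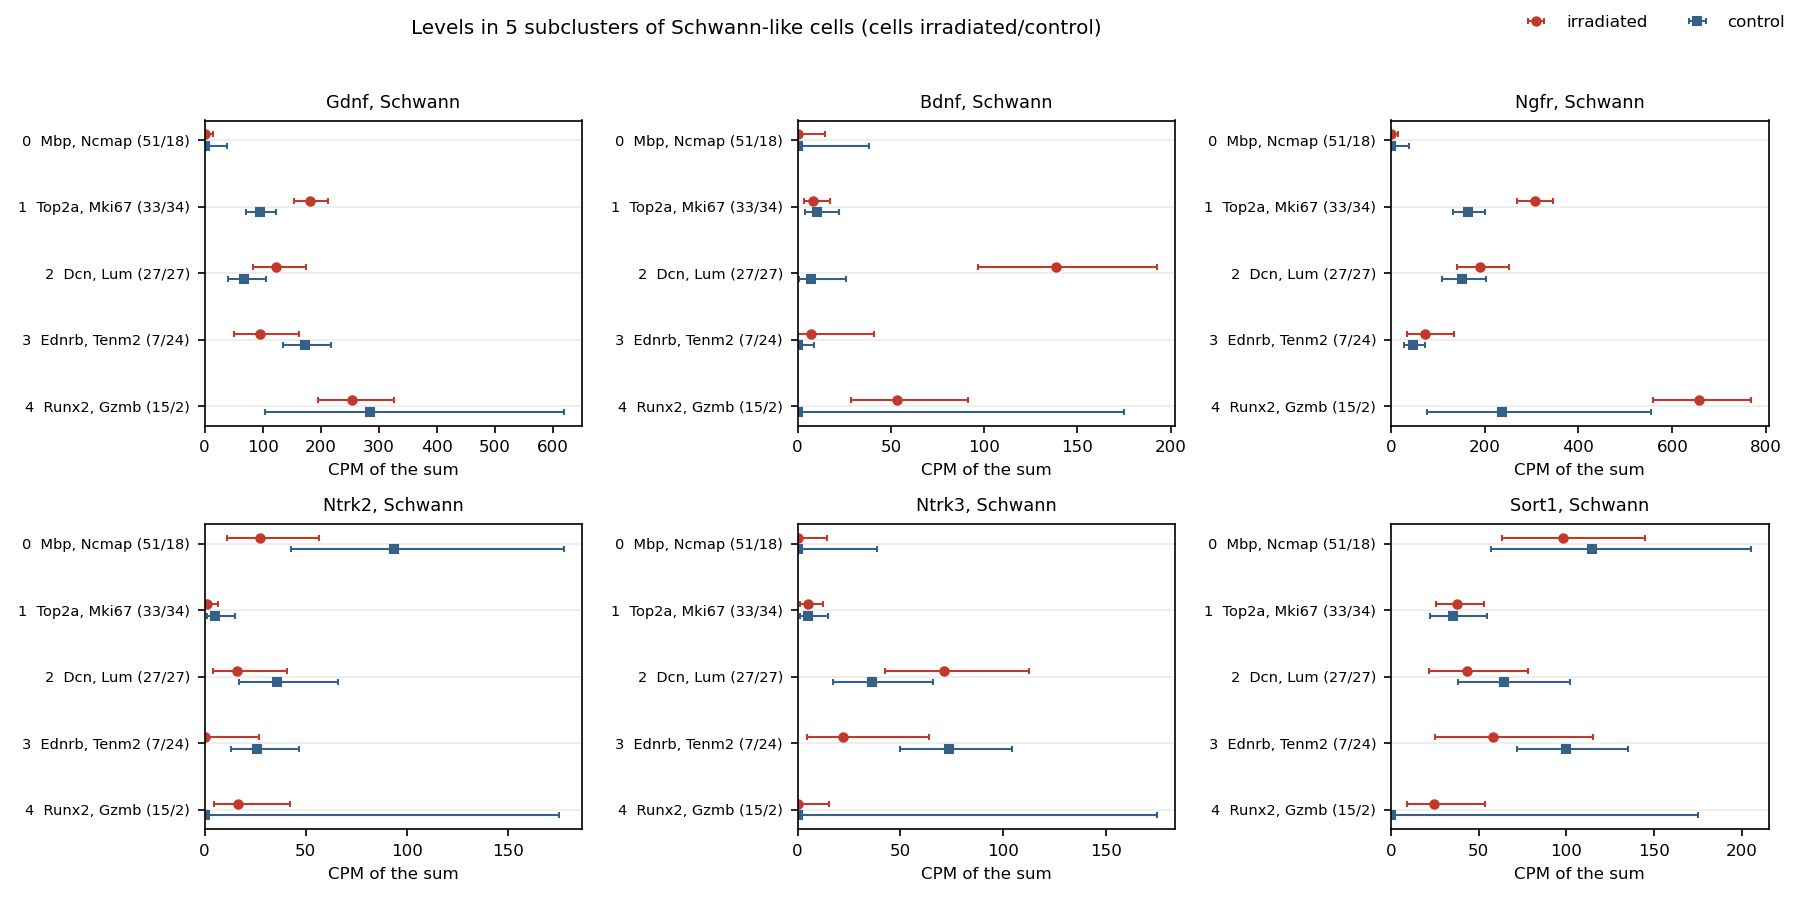
Levels of 6 genes (CPM of the sum, horizontal axis) in 5 subclusters of Schwann-like cells, each named by 2 leading genes, with the numbers of irradiated and control cells in brackets. Red circles are the irradiated library, blue squares the control library, and bars are exact 95% counting intervals. Gdnf and Ngfr are at 0 in the Mbp and Ncmap subcluster, and in the dividing Top2a and Mki67 subcluster they stand at 182 and 307 CPM in irradiated cells and at 95.1 and 165 CPM in control cells.

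Gdnf and Ngfr were carried by the same Schwann-like cells. Of the cells with Gdnf, 51 of 53 irradiated and 36 of 44 control cells also had Ngfr, while of the cells without Gdnf 17.5% in the irradiated and 29.5% in the control library had it. Gfra1, the Gdnf co-receptor, was found in 48 of 53 irradiated and 38 of 44 control cells with Gdnf, and in 71.2% of irradiated and 70.5% of control cells without it. Ret, the kinase that Gdnf signals through with Gfra1, had no UMI in any of 133 irradiated or 105 control Schwann-like cells. Of these, 105 irradiated and 81 control cells had Gfra1. Bdnf was found in 14 of 53 irradiated and 3 of 44 control cells with Gdnf. Depth moved with these counts and was not matched: Schwann-like cells with Gdnf had a median of 19857 UMIs in the irradiated and 17133.5 in the control library, and those without it 4189 UMIs in the irradiated and 7969 in the control library.

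Ngfr in the other classes where it could be measured was within the limits. In pericyte and smooth muscle-like cells it was 13.5 CPM (50 UMIs) in irradiated and 16.8 CPM (74 UMIs) in control cells, and 99.2% of those UMIs were in the Rgs5 cluster. Keratinocyte-like cells had 1.66 CPM (64 UMIs) in irradiated and 1.14 CPM (61 UMIs) in control cells. Its 2 subclusters with enough Ngfr UMIs were called in opposite directions. The Sox6 subcluster was lower, at 3.44 CPM (25 UMIs) in irradiated and 7.41 CPM (25 UMIs) in control cells, and the Il24 subcluster was higher, at 2.19 CPM (13 UMIs) in irradiated and 0.63 CPM (8 UMIs) in control cells.

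Ntrk2 (chromosome 13, 58806569 to 59133970, plus strand), which encodes TrkB, was higher in 3 classes and lower in Schwann-like cells. The 3′ counts do not separate the kinase form from the truncated form that lacks it. GENCODE lists another gene inside it on the same strand, C630044B11Rik, whose reads may not be separable. Mesenchymal-like cells had 45.1 CPM (783 UMIs) in irradiated and 13.6 CPM (822 UMIs) in control cells, a log2 ratio of 1.73 (1.59 to 1.88). The gene was seen in 36.1% of irradiated and 15.3% of control cells of the class, and after thinning in 11.5% of 620 irradiated and 3.09% of 2267 control cells. Neutrophil-like cells had it in 0.239% of irradiated cells and in 0 of 834 control cells.

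The mesenchymal-like ratio differed between ways of weighting the subclusters of the class. The highest level was in the subcluster with Cxcl13, Clec3b and Tnxb, at 145 CPM (331 UMIs) in irradiated and 233 CPM (112 UMIs) in control cells, a ratio of -0.68 (-1.0 to -0.36). This subcluster was 102 of 637 irradiated and 32 of 2316 control cells. The Eln and Sfrp4 subcluster was higher, at 92.8 CPM in irradiated and 45.4 CPM in control cells, a ratio of 1.03 (0.76 to 1.30). So was the subcluster with Cfd and Adipoq, genes of fat cells, at 31.1 CPM in irradiated and 9.24 CPM in control cells. Of 11 subclusters with enough UMIs, 2 were higher, 1 was lower and 8 were within the limits. With subclusters weighted alike the class ratio was -0.04. The call held without any 1 subcluster, with ratios from 1.34, without the Cxcl13 subcluster, to 1.97. The part of class make-up in the ratio was not tested.

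In keratinocyte-like cells Ntrk2 was 19.8 CPM (762 UMIs) in irradiated and 7.46 CPM (400 UMIs) in control cells, a log2 ratio of 1.41 (1.23 to 1.58). The largest part of the UMIs lay in the Sox6 subcluster, where the level was 38.1 CPM in irradiated and 43.0 CPM in control cells. It was higher in 4 of 7 subclusters with enough UMIs and lower in none. The wound edge subcluster with Il24 had 10.5 CPM in irradiated and 2.60 CPM in control cells, a ratio of 2.01 (1.38 to 2.66). The subcluster with Aldh3a1 and Pdk4 had 50.6 CPM in irradiated and 32.0 CPM in control cells, a ratio of 0.66 (0.26 to 1.08). With subclusters weighted alike the class ratio was 0.28 and no longer called. Without any 1 subcluster the call held, at 1.26 to 1.61.

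Pericyte and smooth muscle-like cells had the highest Ntrk2 level in both libraries, at 152 CPM (563 UMIs) in irradiated and 95.3 CPM (421 UMIs) in control cells. The log2 ratio was 0.67 (0.49 to 0.86). Within the Rgs5 cluster it was 0.48, from 110 CPM in irradiated and 79.1 CPM in control cells, and within the Myh11 cluster 0.28, from 271 CPM in irradiated and 223 CPM in control cells. Neither was called alone, and weighted alike the ratio was 0.33. In Schwann-like cells Ntrk2 was 9.34 CPM (16 UMIs) in irradiated and 23.5 CPM (33 UMIs) in control cells, a ratio of -1.33 (-2.29 to -0.43), in a class where 8.17% of all measured genes were lower. No Schwann-like subcluster held 20 Ntrk2 UMIs. The myelin subcluster had 7 UMIs in irradiated and 9 UMIs in control cells, at 27.4 CPM in irradiated and 93.7 CPM in control cells. The ratio was -1.26 with 2 subclusters weighted alike, and the call was lost with a stricter cell filter, at -1.68, and after thinning, at -1.24. In endothelial-like cells it was 10.98 CPM in irradiated and 12.7 CPM in control cells, within the limits. The endothelial-like cluster with Rgs5, which held 90.1% of those UMIs, was lower, at 37.9 CPM in irradiated and 61.5 CPM in control cells, a ratio of -0.70 (-1.17 to -0.24). The order of Ntrk2 levels in the irradiated library was pericyte and smooth muscle-like, mesenchymal-like, keratinocyte-like, then endothelial-like and Schwann-like cells with overlapping intervals. In the control library Schwann-like cells came second, above mesenchymal-like and endothelial-like cells, which overlapped, and keratinocyte-like cells came last of these.

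**Figure D4:**
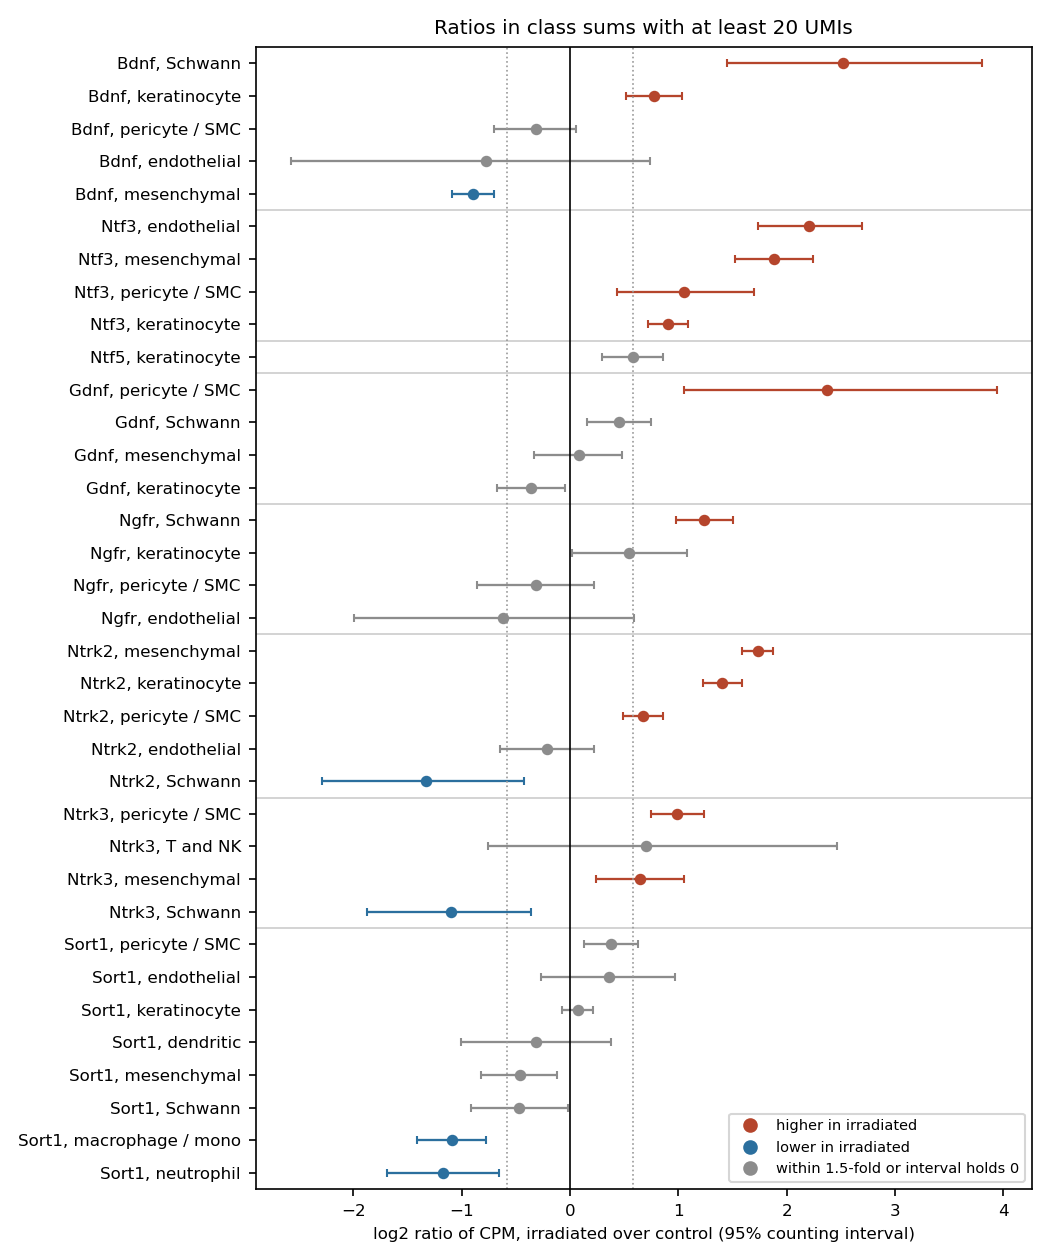
Log2 ratio of CPM, irradiated over control, for each of the 35 measured pairs of gene and class, with exact 95% counting intervals as bars. Red points are higher, blue points lower and grey points within the limits, and dotted lines mark 1.5-fold. The ratios run from 2.52 for Bdnf in Schwann-like cells to -1.33 for Ntrk2 in the same class.

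Ntrk3 (chromosome 7, 78175959 to 78738012, minus strand), which encodes TrkC, was a gene of pericyte and smooth muscle-like cells, which held 74.6% of its UMIs in the irradiated and 49.4% in the control library. As with Ntrk2, its truncated form is not told apart here, and GENCODE lists Gm44607 and Gm39038 inside it on the same strand. The pericyte and smooth muscle-like class had 101 CPM (373 UMIs) in irradiated and 50.7 CPM (224 UMIs) in control cells, a log2 ratio of 0.99 (0.74 to 1.23). Its 2 clusters went opposite ways. The Rgs5 cluster had 55.7 CPM (153 UMIs) in irradiated and 16.1 CPM (63 UMIs) in control cells, a ratio of 1.79 (1.36 to 2.24). The Myh11 cluster had 229 CPM (220 UMIs) in irradiated and 324 CPM (161 UMIs) in control cells, a ratio of -0.50 (-0.80 to -0.20). Weighted alike, the ratio was -0.26, and without the Rgs5 cluster the class was not called. No test of the difference between the clusters was made.

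In mesenchymal-like cells Ntrk3 was 4.32 CPM (75 UMIs) in irradiated and 2.76 CPM (167 UMIs) in control cells, a log2 ratio of 0.65 (0.24 to 1.05). The call was lost without any 1 of 5 subclusters, with ratios from 0.40 to 0.58, and with subclusters weighted alike the ratio was -0.89. Of 3 subclusters with enough UMIs, all had ratios below 0. The subcluster with Apod and Sfrp5 had 54.4 CPM in 21 irradiated and 141 CPM in 7 control cells, and the subcluster with Gpc5 and Slc26a7 27.1 CPM in irradiated and 68.7 CPM in control cells. In Schwann-like cells Ntrk3 was 14.6 CPM (25 UMIs) in irradiated and 31.3 CPM (44 UMIs) in control cells, a ratio of -1.10 (-1.87 to -0.36). That call rested on the Ednrb and Tenm2 subcluster, with 3 UMIs in 7 irradiated and 31 UMIs in 24 control cells. Without it the ratio was 0.08, without the Dcn and Lum subcluster it was -2.65, and weighted alike it was 0.89. T and NK-like cells had 10.05 CPM (20 UMIs) in irradiated and 6.2 CPM (5 UMIs) in control cells, within the limits, in a class where 5.91% of all measured genes were higher and 7.70% were lower. Below pericyte and smooth muscle-like cells, the Ntrk3 intervals of Schwann-like and T and NK-like cells overlapped in the irradiated library, and in the control library those of T and NK-like and mesenchymal-like cells did.

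The ligand Ntf3 and its receptor Ntrk3 were found together in pericyte and smooth muscle-like cells. Of the cells of this class with Ntf3, 19 of 27 irradiated and 12 of 19 control cells had Ntrk3. Without Ntf3, 33.1% of irradiated and 12.5% of control cells had it. These counts cover the whole class, and both genes stood highest in its Myh11 cluster. The part of cluster membership in these shares was not tested. In keratinocyte-like cells, which held most Ntf3, 1 of 296 irradiated and 0 of 236 control cells with Ntf3 had Ntrk3. Bdnf and Ntrk2 were found together in 25 of 41 irradiated and 30 of 60 control pericyte and smooth muscle-like cells with Bdnf, and Ntrk2 in 60.7% of irradiated and 41.1% of control cells without Bdnf. In mesenchymal-like cells the same pair was seen in 28 of 89 irradiated and 118 of 682 control cells with Bdnf, and the share of cells without Bdnf that had Ntrk2 was 36.9% in irradiated and 14.5% in control cells. Depth was not matched in any of these shares. Irradiated pericyte and smooth muscle-like cells had a median of 26101 UMIs with Bdnf and 15455.5 without it, and control cells 17853.5 and 13167. Irradiated mesenchymal-like cells had 38302 with Bdnf and 21244 without it, and control cells 27655 and 24455.

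**Figure D5:**
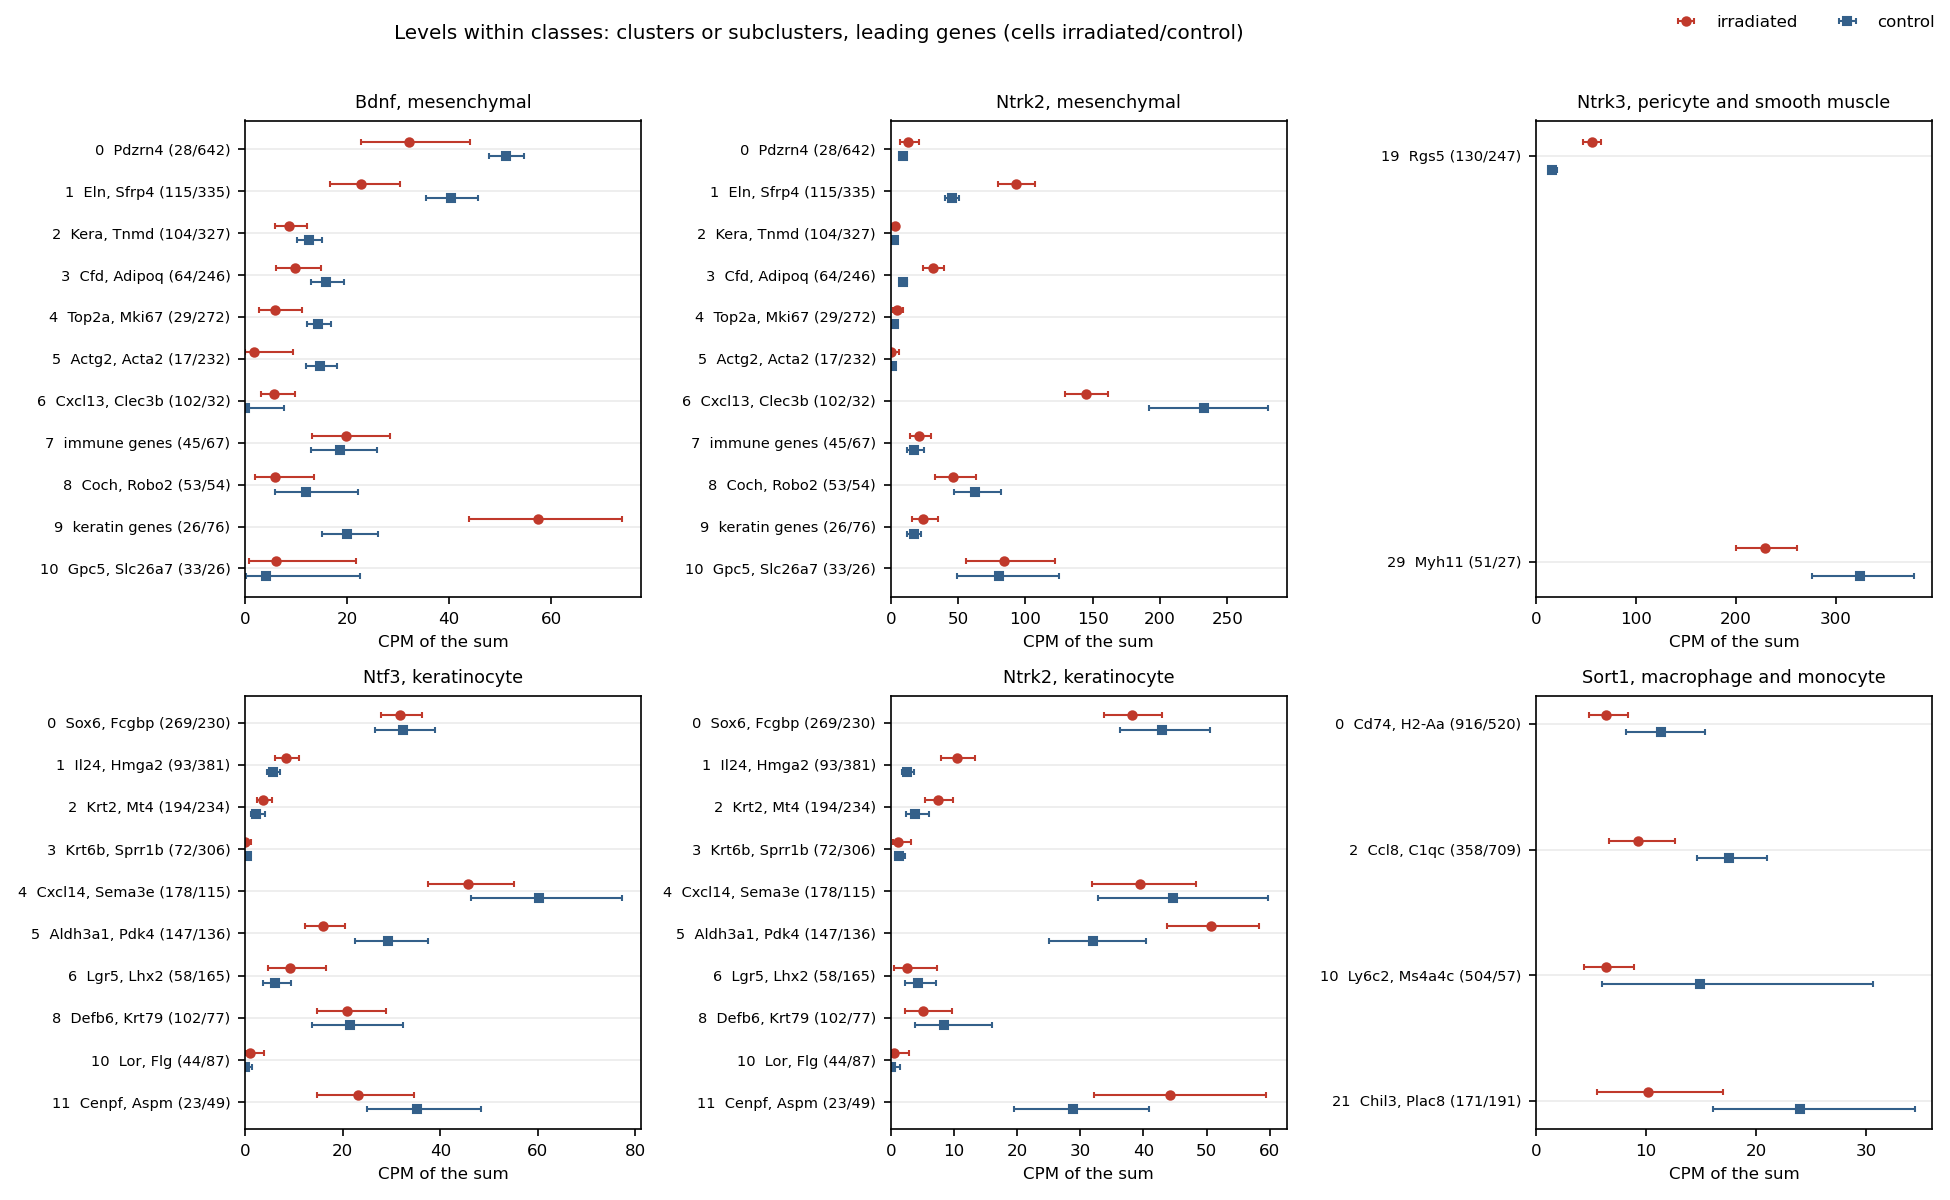
Levels inside classes (CPM of the sum, horizontal axis) for 6 pairs of gene and class, by cluster or subcluster, each named by its number and leading genes with the numbers of irradiated and control cells in brackets. Red circles are the irradiated library, blue squares the control library, and bars are exact 95% counting intervals. Mesenchymal subcluster 11 and keratinocyte subclusters 7, 9 and 12 and the smallest macrophage cluster are not drawn. Sort1 stands lower in the irradiated library in all 4 clusters drawn, while Ntrk3 is higher in cluster 19 and lies at 229 CPM in irradiated and 324 CPM in control cells of cluster 29.

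Sort1 (chromosome 3, 108284082 to 108361511, plus strand), which encodes sortilin, a sorting receptor that p75 uses for proneurotrophins, was measured in 8 classes and was lower in both main myeloid classes. GENCODE lists Gm43099 on the same strand within it. Macrophage and monocyte-like cells had 7.42 CPM (144 UMIs) in irradiated and 15.8 CPM (200 UMIs) in control cells, a log2 ratio of -1.09 (-1.41 to -0.77). In this class 11.9% of all measured genes were lower, 5.83% were higher, and the median gene stood at -0.10. All 4 clusters with enough UMIs had ratios between -1.24 and -0.83, and 3 of them were lower, and weighted alike the clusters gave -1.08. The Ccl8 and C1qc cluster had 9.24 CPM in irradiated and 17.6 CPM in control cells, the Cd74 and H2-Aa cluster 6.38 CPM in irradiated and 11.4 CPM in control cells, and the Chil3 and Plac8 cluster 10.2 CPM in irradiated and 24.02 CPM in control cells. Sort1 was seen in 6.22% of irradiated and 10.1% of control macrophage and monocyte-like cells, and after thinning in 1.55% of 1868 irradiated and 2.86% of 1432 control cells.

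Neutrophil-like cells had 11.6 CPM (66 UMIs) in irradiated and 26.2 CPM (65 UMIs) in control cells, a log2 ratio of -1.17 (-1.69 to -0.66). There 24.4% of all measured genes were lower, 5.03% were higher, and the median gene stood at -0.34. Most of the UMIs were in the cluster with S100a9 and Retnlg, at 17.8 CPM in irradiated and 30.1 CPM in control cells, and without it the few UMIs left gave 0.35 (-1.32 to 2.69). With clusters weighted alike the ratio was -0.45, which ends the call. T and NK-like cells, with 0 irradiated and 1 control Sort1 UMI, gave no ratio.

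Elsewhere Sort1 stayed within the limits. In dendritic-like cells it was 15.6 CPM (37 UMIs) in irradiated and 19.4 CPM (38 UMIs) in control cells, where 6.34% of all measured genes were higher and 5.83% were lower. Keratinocyte-like cells held 42.8% of its UMIs in the irradiated and 41.6% in the control library, at 17.6 CPM (679 UMIs) in irradiated and 16.8 CPM (900 UMIs) in control cells, a ratio of 0.07 (-0.08 to 0.21). All 11 of its keratinocyte-like subclusters with enough UMIs were within the limits. The levels were highest in the sebaceous duct and follicle cells with Defb6 and Krt79, at 61.6 CPM in irradiated and 70.3 CPM in control cells, and in the cornifying cells with Lor and Flg, at 55.3 CPM in irradiated and 53.5 CPM in control cells. Pericyte and smooth muscle-like cells had 76.0 CPM in irradiated and 58.4 CPM in control cells, with 6.24% of all measured genes lower there, Schwann-like cells 47.3 CPM in irradiated and 65.4 CPM in control cells, and mesenchymal-like cells 4.78 CPM in irradiated and 6.6 CPM in control cells. Of 7 mesenchymal-like subclusters with enough Sort1 UMIs, 1 was higher, with Cfd and Adipoq, at 10.7 CPM in irradiated and 3.46 CPM in control cells, and 1 was lower, the tendon subcluster, at 0.852 CPM (3 UMIs) in irradiated and 3.27 CPM (28 UMIs) in control cells. The Myh11 smooth muscle cluster was higher, at 123 CPM in irradiated and 68.4 CPM in control cells, as was the Fabp4 and Plvap endothelial-like cluster, at 4.62 CPM in irradiated and 2.26 CPM in control cells. Melanocyte-like cells, too few to compare, had 217 CPM in 23 irradiated and 193 CPM in 19 control cells. Of the Schwann-like cells with Ngfr, 26 of 65 irradiated and 25 of 54 control cells also had Sort1, as did 27.9% of irradiated and 39.2% of control cells without Ngfr. Depth was not matched in these shares. Cells with Ngfr had a median of 18703 UMIs in the irradiated and 13065.5 in the control library. Those without it had 3820 in the irradiated and 7137 in the control library.

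The pattern of each gene over the 18 sums of class and library was set beside that of 17098 other genes, as a Pearson correlation of log2(CPM + 1) that rests on shared libraries and classes. Nearest to Bdnf were Nol3 (0.97), Evc2 (0.96) and Evc (0.96), and Evc and Evc2 encode ciliary proteins of hedgehog signalling. Nearest to Ntf3 were Arhgap44 (0.95), Bmp6 (0.93) and Gata6 (0.93). For Ntf5 they were Lad1 (0.98), Slc5a1 (0.97) and Mab21l4 (0.97), and for Gdnf Nptx2 (0.98), Bhlhe22 (0.97) and Paqr6 (0.96). Ngfr was nearest to Dclk3 (0.97), Atp6v0e2 (0.95) and Pex5l (0.94). Ntrk2 was nearest to Gm11266 (0.96), Trabd2b (0.96) and Klhl29 (0.96). The nearest genes to Ntrk3 were Klhl30 (0.95), 2610027K06Rik (0.93) and Tbx2 (0.91). Sort1 had no close partner, the nearest being 4632427E13Rik (0.83), Pnpla8 (0.79) and Tppp3 (0.78).

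The other genes of these pathways were read from lists. In Schwann-like cells, 4 of 8 genes of the GDNF family and its receptors could be measured, 1 was higher and 2 were lower, with a median of -0.55 against -0.04 for all genes, of which 7.09% were higher and 8.17% were lower in this class. Gfra1 was 789 CPM in irradiated and 425 CPM in control cells, Gfra2, the neurturin co-receptor, 53.7 CPM in irradiated and 107 CPM in control cells, and Gfra3, the artemin co-receptor, 37.4 CPM in irradiated and 99.6 CPM in control cells. Of 7 measured repair genes 2 were higher and 1 was lower, beside the same shares of all genes. Shh was 111 CPM in irradiated and 22.8 CPM in control cells, the growth factor gene Btc 228 CPM in irradiated and 130 CPM in control cells, and Gfap 6.42 CPM in irradiated and 14.2 CPM in control cells. Of 8 myelin genes 6 were higher and none was lower, with a median of 0.79, beside the same shares of all genes. They included Mbp at 1121 CPM in irradiated and 526 CPM in control cells, and Prx at 233 CPM in irradiated and 131 CPM in control cells, and they moved with the larger share of the myelin subcluster in the irradiated library, whose part in the counts was not tested. Myelin genes were also higher in mesenchymal-like cells, where 4 of 7 passed beside 12.8% of all measured genes, Mbp being 8.81 CPM in irradiated and 2.31 CPM in control cells. The part of free Schwann cell RNA in this was not tested.

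The genes of proneurotrophin processing differed by class. In mesenchymal-like cells 3 of 9 measured genes were higher and 1 was lower, beside 12.8% of all measured genes higher and 6.87% lower. Pcsk6, a proprotein convertase, was 20.96 CPM in irradiated and 4.79 CPM in control cells, and the metalloprotease Mmp3 646 CPM in irradiated and 189 CPM in control cells. Mmp9 was 4.09 CPM in irradiated and 6.50 CPM in control cells. In keratinocyte-like cells 1 of 9 was higher and 4 were lower, where 7.40% of all measured genes were higher and 7.26% were lower. Among them were Pcsk5, at 6.14 CPM in irradiated and 14.1 CPM in control cells, and Mmp9, at 2.67 CPM in irradiated and 5.57 CPM in control cells.

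Of the relatives of sortilin, Sorcs1 and Sorcs2 were lower in endothelial-like, keratinocyte-like and mesenchymal-like cells. Sorcs2 was 104 CPM in irradiated and 165 CPM in control mesenchymal-like cells, 24.9 CPM in irradiated and 48.5 CPM in control keratinocyte-like cells, and 5.41 CPM in irradiated and 11.03 CPM in control endothelial-like cells. Over all classes the list had 43 measured pairs, 3 higher and 9 lower, beside 7.89% of all measured pairs higher and 8.69% lower. Beside the same shares, the Trk adaptors gave 2 higher and 12 lower of 114 pairs, and the partners and cleaving enzymes of p75 2 higher and 10 lower of 88 pairs, with the lower calls near the share over all genes. Gab1, a docking protein of many receptor kinases, was lower in 7 of 9 classes, among them macrophage and monocyte-like cells at 158 CPM in irradiated and 257 CPM in control cells and mesenchymal-like cells at 60.1 CPM in irradiated and 95.1 CPM in control cells. Bex3, a binding partner of p75, was lower in 4 of 9 classes, among them mesenchymal-like cells at 39.3 CPM in irradiated and 65.3 CPM in control cells.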

How the data were processed

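The authors deposited raw UMI counts per gene and barcode, with no normalisation, made with Cell Ranger 5.0.1 per the file headers, and mm10 is the build in the submitters' processing notes. Libraries were 10x Genomics 3′ v3 per the labels' protocols. Kept cells had 500 or more genes, 1000 or more UMIs, and mitochondrial UMIs of 10% or less. Scrublet in scanpy 1.11.5 removed 74 irradiated and 529 control doublets, with thresholds of its own choice of 0.359 and 0.237 in the irradiated and control library. Both libraries were clustered together (2000 variable genes without the 8 genes, 30 components, 15 neighbours, Leiden resolution 1.0, leidenalg 0.10.2), and mesenchymal-like, keratinocyte-like and Schwann-like cells again at 0.5. Clusters were named from marker lists. Clusters with a low marker score, a close rival or leading genes of another class stayed unnamed, at 764 irradiated and 568 control cells. A cluster of 272 irradiated and 434 control cells and another of 432 irradiated and 63 control cells scored best as macrophage and monocyte-like. They stayed outside that class. Counts were summed per class and library, and ratios have exact conditional Poisson intervals, shares exact Clopper-Pearson intervals. A share of 0 cells is given with the limit that 3 cells would set. Values are printed for classes with at least 5% of a gene's UMIs or with a call, and for up to 4 called genes of each other list in a class, those with the widest ratios. The calling rule was run on simulated Poisson counts, the model that the intervals assume. That run cannot show how the rule behaves where few cells hold most UMIs or where mice differ. The genes, lists and rules were chosen with earlier results of these data known. Gene positions matched GENCODE M21 by gene ID for all 8 genes, and promoter windows were listed by RefSeq for 5 of the 8 genes. Looser and stricter filters, kept doublets, other scalings, resolutions, thinning to 2000 UMIs and equal weights were tried. Some genes of the lists are counted but not reported here by name.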

Additional observations from a re-analysis of the deposited data

Results flagged for a closer look

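For 3 genes, classes of cells moved in opposite directions between the libraries, and the difference between classes was not tested for any of them. Bdnf was higher in irradiated Schwann-like cells, at a log2 ratio of 2.52, and in keratinocyte-like cells, at 0.77, and lower in mesenchymal-like cells, at -0.89. Ntrk2 was higher in pericyte and smooth muscle-like cells, at 0.67, in mesenchymal-like cells, at 1.73, and in keratinocyte-like cells, at 1.41, and lower in Schwann-like cells, at -1.33. Ntrk3 was higher in pericyte and smooth muscle-like cells, at 0.99, and in mesenchymal-like cells, at 0.65, and lower in Schwann-like cells, at -1.10. Each side is 1 library, and several of these ratios changed sign when subclusters were weighted alike.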

How the results depend on the processing

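No paired analysis was possible because each group has 1 library. Log2 ratios changed sign when subclusters were weighted alike for Bdnf (-0.022) and Ntf3 (-0.21) in keratinocyte-like cells, for Ntrk2 (-0.045) and Ntrk3 (-0.89) in mesenchymal-like cells, and for Ntrk3 in Schwann-like (0.89) and in the pericyte and smooth muscle-like class (-0.26). Under the same weights calls were lost for Bdnf (-0.12) and Ntf3 (0.52) in mesenchymal-like cells, Ntrk2 in keratinocyte-like cells (0.28), Sort1 in neutrophil-like cells (-0.45), and, among pericyte and smooth muscle-like cells, Ntf3 (0.0022) and Ntrk2 (0.33). Under these weights 7 pairs were higher, among them 3 that were not higher otherwise, Gdnf (0.90) and Ntrk3 (0.89) in Schwann-like and Ntrk3 in T and NK-like cells (0.85). Under a stricter cell filter Ntf3 in pericyte and smooth muscle-like cells was -1.48, because the smooth muscle cluster was then no longer named. Ntrk3 in mesenchymal-like cells was 0.29 under that filter, 0.37 at resolution 2.0 and 0.40 after thinning. Thinning also ended the calls of Ntf3 in pericyte and smooth muscle-like cells (1.19) and Ntrk3 in Schwann-like cells (-1.46), with 3 pairs lower under it. Ntrk3 in Schwann-like cells was -0.47 with each cell weighted alike. The cause of these losses was not tested, and thinning also leaves fewer UMIs. Under a limit of 2-fold 8 pairs were higher, and it by construction ended the calls of Bdnf in keratinocyte-like (0.77) and mesenchymal-like cells (-0.89), Ntf3 in keratinocyte-like cells (0.91), Ntrk3 in mesenchymal-like cells (0.65), and Ntrk2 (0.67) and Ntrk3 (0.99) in the pericyte and smooth muscle-like class. That limit left, of all genes, 414 higher and 414 lower in Schwann-like, 300 and 421 in T and NK-like, 331 and 281 in dendritic-like, 703 and 265 in endothelial-like, 663 and 666 in keratinocyte-like, 369 and 820 in macrophage and monocyte-like, 1386 and 509 in mesenchymal-like, 268 and 1133 in neutrophil-like, with 597 and 328 in the pericyte and smooth muscle-like class. With doublets kept, 238 genes were higher and 232 lower in Schwann-like cells, where the larger Schwann cluster stayed unnamed, and 965 were lower in endothelial-like cells. Scaled to the median gene, 985 were higher and 927 lower in neutrophil-like cells, and 4 pairs of Trk adaptor and class were higher. Ngfr in Schwann-like cells, Ntf3 in endothelial-like cells and Sort1 in macrophage and monocyte-like cells kept their calls under each of the 11, 13 and 13 alternatives that gave them a value.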
